A study of Mus musculus with 4 samples.

Results

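The 10 genes described here encode Wnt ligands that signal mostly without β-catenin, or with it in some tissues and without it in others: Wnt4, Wnt5a, Wnt5b, Wnt6, Wnt7a, Wnt7b, Wnt9a, Wnt9b, Wnt11 and Wnt16. They were listed by name among the 19 mouse Wnt ligand genes, and 21951 protein-coding genes of the same annotation served as the background. The signalling class of a ligand is background knowledge that peak positions cannot check. For each gene, every H3K27me3 peak that lay in the gene or within 10 kb of it was taken from the deposited peak lists, together with the rows that the authors' annotation paired with the gene. This gave 48 of 10223 peaks in one library and 57 of 15282 in the other.

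To locate the mark that Ezh2 places, the study profiled H3K27me3 by CUT&RUN in erythro-myeloid progenitors (EMPs) of C57BL/6 mice, sorted from the yolk sac at E10.5. In CUT&RUN an antibody tethers a nuclease to its target, and the DNA that is cut free is sequenced. An H3K27me3 library and an IgG control library were made from 500 EMPs and again from 15000 EMPs, 1 library each, and the peak lists of the H3K27me3 libraries were used here. All libraries carry the genotype label Ezh2fl/fl; Tie2-Cre+/+ Wild type, read here as wild type as the study does. Tie2-Cre is active in endothelium and the blood cells that arise from it, and the study gated EMPs on KIT, CD41 and CD16/32. The libraries differed in amplification (17 cycles for 500 EMPs, 16 for 15000 EMPs), in read length (76 bp and 59 bp) and in instrument, and in the peak caller's p-value limit, 0.01 for the smaller library (500 EMPs) and 0.05 for the larger. The effect of cell number therefore cannot be told apart from these. The lists hold positions only, so a peak was present or absent, and they give neither its height nor a read count. The study's reporting summary names signal tracks (BigWig) as available too, and these were not used here. The same summary gives the 500-EMP library the lower depth and alignment rate. With 1 library per cell number no test between them was made, and depth was not corrected for.

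Wnt ligands are secreted, lipid-modified proteins that Porcn acylates and Wls carries to the cell surface. Non-canonical ligands such as Wnt5a and Wnt11 act through Frizzled, Ror and Ryk receptors on cell polarity, movement and calcium, whereas canonical ligands stabilise β-catenin. H3K27me3, deposited by the Polycomb complex that contains Ezh2, is a repressive mark found over CpG-rich starts of silent developmental genes, and it often spreads from there into the gene body.

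All 10 genes carried H3K27me3 peaks in both libraries, but the base at which the gene begins was usually left out of them. With 15000 EMPs the start of Wnt4, Wnt5a, Wnt5b, Wnt6, Wnt7a and Wnt9a fell in a gap of 340 to 853 bp between a peak upstream and a peak downstream. The start of Wnt7b, Wnt9b, Wnt11 and Wnt16 lay inside a peak. The 250 bases just upstream of the start are shown for 5 genes, because these bases hold the edge of the gap in Wnt4 and Wnt5b, lie wholly in it in Wnt9a, and lie wholly under a 15000-EMP peak in Wnt11 and Wnt7b. They are given 5′ to 3′ in the direction of transcription, and capitals mark each CG dinucleotide. All positions are 1-based on GRCm38 (mm10), and the letters are those of RefSeq's GRCm38.p6.
Wnt4, chr4:137277239-137277488, plus strand: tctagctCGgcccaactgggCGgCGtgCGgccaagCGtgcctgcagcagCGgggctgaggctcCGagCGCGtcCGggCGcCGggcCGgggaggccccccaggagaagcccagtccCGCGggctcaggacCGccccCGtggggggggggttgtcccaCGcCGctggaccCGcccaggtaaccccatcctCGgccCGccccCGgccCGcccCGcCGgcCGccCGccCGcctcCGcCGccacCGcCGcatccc
Wnt5b, chr6:119544348-119544597, minus strand: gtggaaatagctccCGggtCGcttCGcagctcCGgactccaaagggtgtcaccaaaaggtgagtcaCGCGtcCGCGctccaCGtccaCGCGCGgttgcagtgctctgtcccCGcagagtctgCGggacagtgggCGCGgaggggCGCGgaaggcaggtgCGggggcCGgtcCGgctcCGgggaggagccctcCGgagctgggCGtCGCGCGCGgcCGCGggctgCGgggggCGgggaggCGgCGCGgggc
Wnt9a, chr11:59306678-59306927, plus strand: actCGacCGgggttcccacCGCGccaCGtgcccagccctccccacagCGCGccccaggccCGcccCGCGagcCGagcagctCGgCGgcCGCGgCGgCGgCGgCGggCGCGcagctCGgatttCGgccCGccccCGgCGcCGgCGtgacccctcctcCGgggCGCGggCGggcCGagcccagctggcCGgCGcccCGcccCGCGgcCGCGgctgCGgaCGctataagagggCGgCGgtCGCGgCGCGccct
Wnt11, chr7:98834862-98835111, plus strand: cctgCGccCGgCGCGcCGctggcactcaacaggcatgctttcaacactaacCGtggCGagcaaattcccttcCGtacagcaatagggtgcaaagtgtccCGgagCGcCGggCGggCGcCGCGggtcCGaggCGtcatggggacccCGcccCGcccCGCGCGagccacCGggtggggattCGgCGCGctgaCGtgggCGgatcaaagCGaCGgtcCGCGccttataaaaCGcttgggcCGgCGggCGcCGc
Wnt7b, chr15:85582474-85582723, minus strand: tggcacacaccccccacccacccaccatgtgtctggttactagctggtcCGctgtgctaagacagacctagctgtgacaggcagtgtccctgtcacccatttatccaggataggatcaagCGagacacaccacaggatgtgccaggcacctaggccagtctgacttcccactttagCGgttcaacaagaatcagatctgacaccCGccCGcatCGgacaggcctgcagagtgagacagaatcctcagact
These stretches held 33 CG dinucleotides in Wnt4, 35 in Wnt5b, 48 in Wnt9a, 37 in Wnt11 and 6 in Wnt7b. Peaks of the 15000-EMP list covered 14 of the 250 bases in Wnt4, 43 in Wnt5b and 0 in Wnt9a. The stretches of Wnt11 and Wnt7b were covered whole, so a start rich in CG and a start poor in CG were both found under a peak.

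Every member had a peak within 3 kb of its start with 500 EMPs (10 of 10, 95% Wilson interval 72.2 to 100%, against 9.92% of all protein-coding genes) and with 15000 EMPs (10 of 10, against 17.0%). The intervals cover counting error only, and the members were chosen with earlier results of these data known. Over the gene and 10 kb on each side, a peak was present for 10 of 10 members in each library, against 15.0% of all genes with 500 EMPs and 25.0% with 15000 EMPs. Of the 9 other Wnt ligand genes, 7 had a peak within 3 kb of the start and 9 had one in this wider window, in each library. The start itself lay inside a peak in 2 of 10 members with 500 EMPs (Wnt7b and Wnt11, against 1.40% of all genes) and in 4 of 10 with 15000 EMPs (against 8.62%). Among only the genes with a peak within 3 kb, as all members have, these shares were 14.1% and 50.8%. The start was free of peaks, with a peak within 1 kb on each side, in 6 of 10 members with 500 EMPs (against 1.80% of all genes) and in 6 of 10 with 15000 EMPs (against 2.70%). This last rule was set after the peaks had been seen. With peaks joined within 1 kb, 2 members met it with 500 EMPs and 0 with 15000 EMPs. The 4 genes Wnt5b, Wnt6, Wnt7a and Wnt9a met the rule in both lists as deposited. Without the shortest peaks 4 members met it with 500 EMPs, because Wnt6 and Wnt16 had done so only through a peak of 137 bp.

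**Figure D1:**
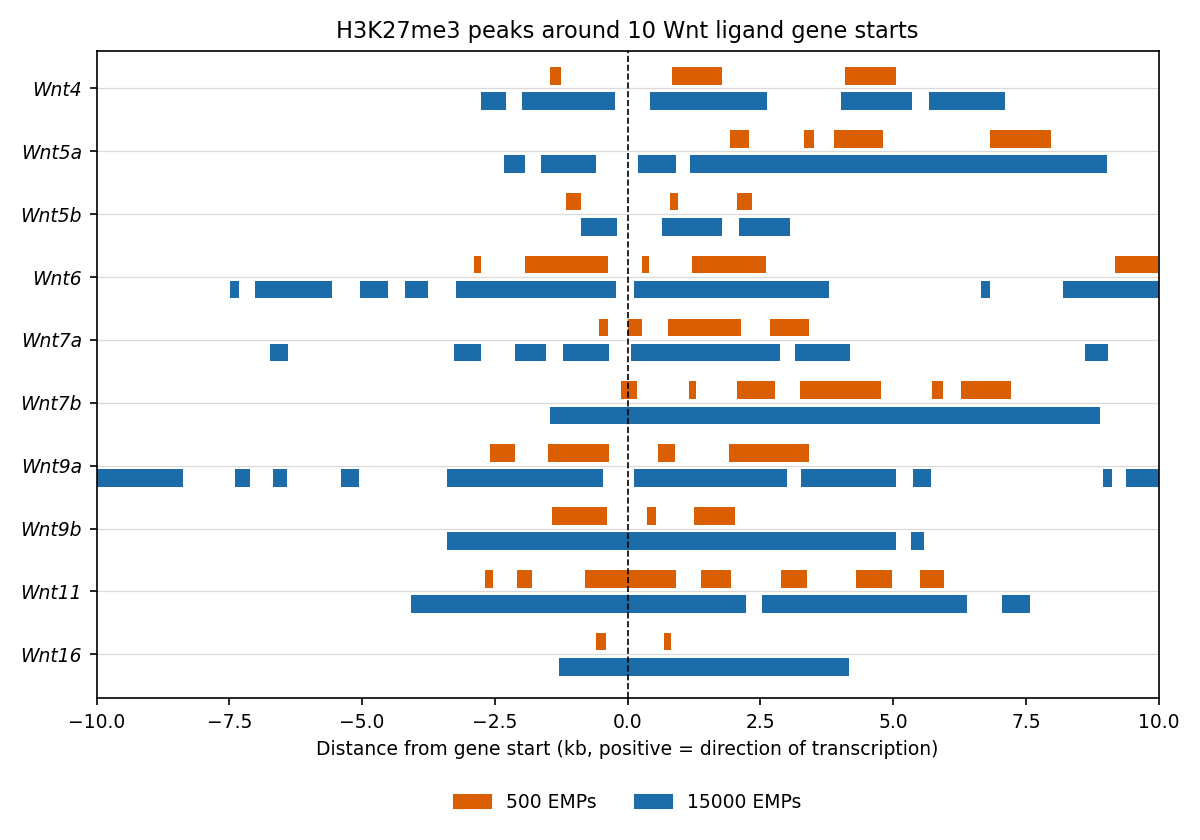
H3K27me3 peaks within 10 kb of the start of each of the 10 genes, in kb along the direction of transcription, with the 500-EMP library in orange and the 15000-EMP library in blue (1 library each). Each bar is 1 peak, cut at the window's edge: most peaks of the 500-EMP list sit inside wider peaks of the 15000-EMP list, and 6 blue tracks break at the dashed start line.

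The ligands most closely tied to non-canonical signalling were Wnt5a, Wnt5b and Wnt11. At Wnt5a, which drives limb and body axis outgrowth and signals through Ror2 (chromosome 14, 28504750 to 28527448, plus strand), the 500-EMP list held 4 peaks of 196 to 1143 bp. All of them lay downstream of the start, the nearest 1926 bp into the gene. The 15000-EMP list also held 4 peaks. One of them was 7854 bp wide, ran from +1170 to +9023 bp and contained all 4 peaks of the smaller library. This wide peak covered the start of the transcript Wnt5a-202, a second coding start 6655 bp inside the gene, whereas the gene start fell in a gap of 801 bp between a peak ending 603 bp upstream and one beginning 199 bp downstream.

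Wnt5b, the closest relative of Wnt5a, spans 111817 bp (chromosome 6, 119432531 to 119544347, minus strand). The 500-EMP list held 3 narrow peaks there, of 275 bp, 159 bp and 280 bp, all within 3 kb of the start. The upstream one, from -1155 to -881 bp, was the only member peak of that list without overlap in the larger library, where the nearest peak had its upstream edge at -877 bp. The 15000-EMP list held 6 peaks at Wnt5b in 2 groups. The first group of 3 lay between -877 and +3051 bp and left a gap of 853 bp at the start. The second group of 3, with widths of 1417 bp, 339 bp and 615 bp, lay between +90843 and +94755 bp. The annotation places another coding start, that of Wnt5b-201, at +94961 bp, so that this second group ended 206 bp before it and left it uncovered. Measured to the first base of each gene, these 3 peaks were nearest to Fbxl14, a gene inside the Wnt5b interval, at 26164 to 29462 bp. No 500-EMP peak lay within 10 kb of the Wnt5b-201 start.

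Wnt11, a ligand of convergent extension, heart outflow and kidney branching (chromosome 7, 98835112 to 98855195, plus strand), was covered at its start in both libraries. With 500 EMPs it had 7 peaks, and the widest, of 1714 bp, ran from -812 to +901 bp. With 15000 EMPs it had 3 peaks, of 6307 bp, 3855 bp and 544 bp. The first ran from -4080 to +2226 bp over 4 of the smaller library's peaks, and the second took in the other 3. All 3 distinct coding starts of Wnt11 lay inside a 15000-EMP peak.

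Wnt4 and Wnt9b act in the developing kidney, where Wnt9b from the ureteric bud precedes Wnt4 in the mesenchyme. At Wnt4 (chromosome 4, 137277489 to 137299726, plus strand) the 500-EMP list held 3 peaks, of 195 bp, 941 bp and 958 bp, and the start was 840 bp from the nearest. The 15000-EMP list held 5 peaks between -2759 and +7113 bp. They left 655 bp bare at the start, and 3 of them contained the peaks of the smaller library. At Wnt9b (chromosome 11, 103727364 to 103749821, minus strand) the 3 peaks of the 500-EMP list, of 1021 bp, 163 bp and 761 bp, framed the start at 398 bp and 362 bp. A single 15000-EMP peak of 8448 bp, from -3396 to +5051 bp, joined all 3 and covered the start. The whole 6001-bp window of 3 kb on each side was thus covered at Wnt9b, and at no other member.

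Wnt7a patterns the limb and the reproductive tract, and Wnt7b acts in the lung and in the vessels of the brain. At Wnt7a (chromosome 6, 91363981 to 91411363, minus strand) the 500-EMP list held 4 peaks, one of which, 251 bp wide, began 12 bp downstream of the start. The 15000-EMP list held 7, and its 2803-bp peak began 58 bp downstream. The start fell in gaps of 374 bp and 409 bp. At Wnt7b (chromosome 15, 85535437 to 85582473, minus strand) 6 peaks of 137 to 1522 bp in the 500-EMP list, the first of them over the start from -129 to +169 bp, all lay within 1 peak of 10345 bp in the 15000-EMP list, which held 2 further peaks there of 386 bp and 1128 bp. The wide peak ran from -1458 to +8886 bp, was the widest of the member peaks and held all 5 coding starts of the gene, of which 2 were inside a 500-EMP peak.

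Wnt6 and Wnt9a lie beside canonical ligand genes, as does Wnt9b, whose neighbour Wnt3 starts at position 103774150 of chromosome 11. The start of Wnt10a is 19624 bp from that of Wnt6 (chromosome 1, 74771892 to 74785322, plus strand), and each library had more peaks at Wnt6 than at most other members: 10 with 500 EMPs and 12 with 15000 EMPs. In each library 5 of these were nearer to the start of Wnt10a. Near the start of Wnt6, a ligand of ectoderm and somite epithelium, the 15000-EMP peaks were 3005 bp wide upstream and 3669 bp wide downstream and stopped 226 bp and 115 bp short of it. Another wide peak of 7047 bp ran over the 3′ end of the gene, from +8206 to +15252 bp. At Wnt9a, a ligand of joint formation (chromosome 11, 59306928 to 59333552, plus strand), the 4 peaks of the 500-EMP list, 327 to 1499 bp wide, stayed within -2586 to +3414 bp. The 12 peaks of the 15000-EMP list reached from -10297 to +27158 bp. The outermost of them upstream, 1933 bp wide, was nearest to the start of Wnt3a.

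Wnt16, a ligand of bone that is also required for blood stem cell formation in zebrafish, showed the largest ratio of covered length between the lists (chromosome 6, 22288227 to 22298522, plus strand). With 500 EMPs it had 2 peaks, of 183 bp and 137 bp, which framed the start at 409 bp and 688 bp. With 15000 EMPs it had 1 peak of 5461 bp from -1295 to +4165 bp. This peak covered the start, held both smaller peaks and included all 4 coding starts of the gene.

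In all, the members had 46 peaks with 500 EMPs, with a median width of 485.5 bp (137 to 2758 bp), and 55 peaks with 15000 EMPs, with a median width of 983 bp (171 to 10345 bp). The medians of the whole lists were 363 bp and 770 bp. Of the 15000-EMP member peaks, 7 (12.7%) were wider than 5 kb, against 5.73% of that whole list. Those of 7047 bp and 6323 bp, counted at Wnt6, were nearest to the start of Wnt10a. So was the widest 500-EMP peak, of 2758 bp. The rows the authors' tables paired with the 10 genes numbered 38 and 47. Beyond 10 kb lay 2 rows of each: a peak about as far upstream of Wnt7b in both lists (35346 bp with 500 EMPs, 35526 bp with 15000 EMPs, overlapping each other), and peaks downstream of Wnt7a that did not overlap. For 5 of 46 and 10 of 55 member peaks the nearest gene start was not that of a member.

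Peaks of the 500-EMP list lay almost wholly inside those of the larger library. Of its 46 member peaks, 45 shared at least 1 bp with a 15000-EMP peak (97.8%, 95% Wilson interval 88.7 to 99.6%), against 91.2% of its whole list. In the other direction 23 of 55 overlapped (41.8%, 29.7 to 55.0%), against 32.2% of that list. The 32 without a counterpart had a median width of 447 bp, and the 23 with one had a median of 2937 bp. Of the 23, 14 overlapped at least 2 separate peaks of the smaller library. In Wnt4, Wnt5a, Wnt7b, Wnt9b, Wnt11 and Wnt16 every base covered with 500 EMPs was also covered with 15000 EMPs. In the other 4 genes 306 of 714 bp at Wnt5b, 343 of 2546 bp at Wnt7a, 358 of 3428 bp at Wnt9a and 451 of 8970 bp at Wnt6 were covered with 500 EMPs alone.

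Within 3 kb of the start, in a window of 6001 bp, peaks covered more of every member with 15000 EMPs than with 500 EMPs. At Wnt4 the covered length was 1136 bp with 500 EMPs against 4432 bp with 15000 EMPs. In the same order it was 359 bp and 3977 bp at Wnt5a, and 714 bp against 2713 bp at Wnt5b. It was 3224 bp and 5661 bp at Wnt6, 2123 bp and 4494 bp at Wnt7a, and 1163 bp and 4459 bp at Wnt7b. At Wnt9a it was 3014 bp and 5416 bp, at Wnt9b 1945 bp and 6001 bp, at Wnt11 2822 bp and 5700 bp, and at Wnt16 320 bp and 4296 bp. The ratio between the libraries ran from 1.76 at Wnt6 to 13.4 at Wnt16, but the window caps it where much was already covered with 500 EMPs. Over the gene and 10 kb on each side it ran from 2.48 at Wnt11 to 17.1 at Wnt16. The summed length of the member peaks differed 3.47-fold, and that of all peaks in the lists 4.03-fold. The order of the genes differed too: Wnt16 was the lowest of the members with 500 EMPs, whereas Wnt5b was with 15000 EMPs. Over the 10 members the median was 1554 bp and 4476.5 bp, over the 9 other Wnt ligand genes 2052 bp and 5494 bp, and over all protein-coding genes with a peak in that window 789 bp and 2743 bp. No spread between libraries was available for any of these values.

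**Figure D2:**
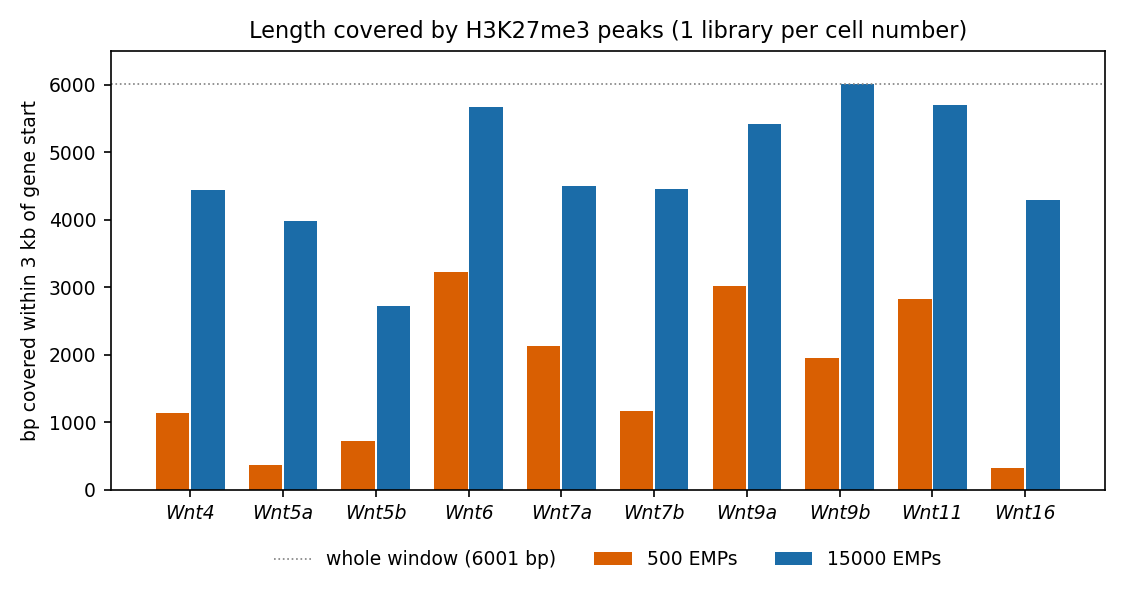
Length covered by H3K27me3 peaks within 3 kb of the gene start (bp, vertical axis from 0) for each of the 10 genes, 500 EMPs in orange and 15000 EMPs in blue, 1 library each and so without error bars. The blue bar is higher at every gene, from 2713 bp at Wnt5b to the whole window of 6001 bp (dotted line) at Wnt9b.

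Around the start, the members' coverage had a narrow dip. With 15000 EMPs, peaks covered on average 42.1% of the 200 bp at the start, 98.9% of the window centred 800 bp upstream and 100% of that 800 bp downstream. Over all protein-coding genes with a peak within 3 kb the dip was shallower, with 51.1% at the start, 55.5% at 600 bp upstream and 68.5% at 1000 bp downstream. Over the other 9 Wnt ligand genes 72.2% was covered at the start between maxima of 77.8% on both sides. These 9 include Wnt8a and Wnt8b, which had no peak within 3 kb in either library, so that 77.8% is the most the set could reach near the start. In 6 of them (Wnt1, Wnt2, Wnt2b, Wnt3, Wnt10a and Wnt10b) the start lay inside a 15000-EMP peak. With 15000 EMPs only Wnt3a of these 9 had a bare start between peaks within 1 kb, and there the downstream peak began 1 bp from it. With 500 EMPs 4 of the 9 did (Wnt2b, Wnt3a, Wnt10a and Wnt10b), beside 6 of the 10 members. With 500 EMPs the members' coverage was 24.4% at the start, with its low near the start, 11.5%, in the window 200 bp upstream, and maxima of 46.4% at 600 bp upstream and 50.7% at 2200 bp downstream. The other Wnt ligand genes had 11.1% at the start between 47.4% and 60.8%, and all genes with a peak within 3 kb had 14.3% between 24.4% and 28.9%. Genes are not replicates, and no test was made between the sets.

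**Figure D3:**
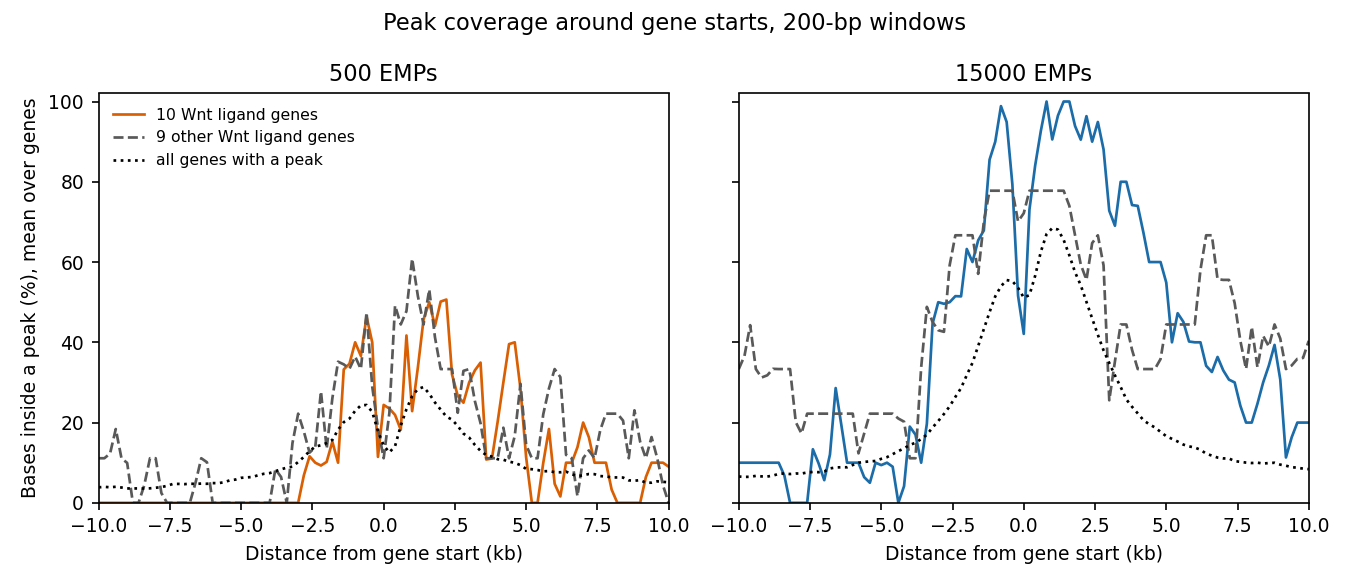
Mean share of bases inside an H3K27me3 peak (%) in 200-bp windows up to 10 kb either side of the gene start, for 500 EMPs on the left and 15000 EMPs on the right. Solid lines are the 10 genes, dashed lines the 9 other Wnt ligand genes and dotted lines all protein-coding genes with a peak within 3 kb; the solid line on the right falls to 42.1% at the start between shoulders of 98.9% and 100%.

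Among all 3728 genes with a 15000-EMP peak within 3 kb, 50.8% had the start inside a peak and 15.9% had it between peaks within 1 kb, and the median gap of the latter was 609 bp. Among the 2177 such genes with 500 EMPs these shares were 14.1% and 18.1%, with a median gap of 968 bp. The gaps of the 6 members with 15000 EMPs were 655 bp at Wnt4, 801 bp at Wnt5a, 853 bp at Wnt5b, 340 bp at Wnt6, 409 bp at Wnt7a and 585 bp at Wnt9a, with a median of 620 bp. The 500-EMP list had no peak in 4 of these gaps and covered 46 bp of the one at Wnt7a and 101 bp of the one at Wnt9a. RefSeq starts were matched for 8 of the 10 genes, with none matched for Wnt5a and Wnt7b in the table used here, and the 5 matched among the 6 genes with a gap each lay in the same gap, at most 146 bp from the start used here.

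**Figure D4:**
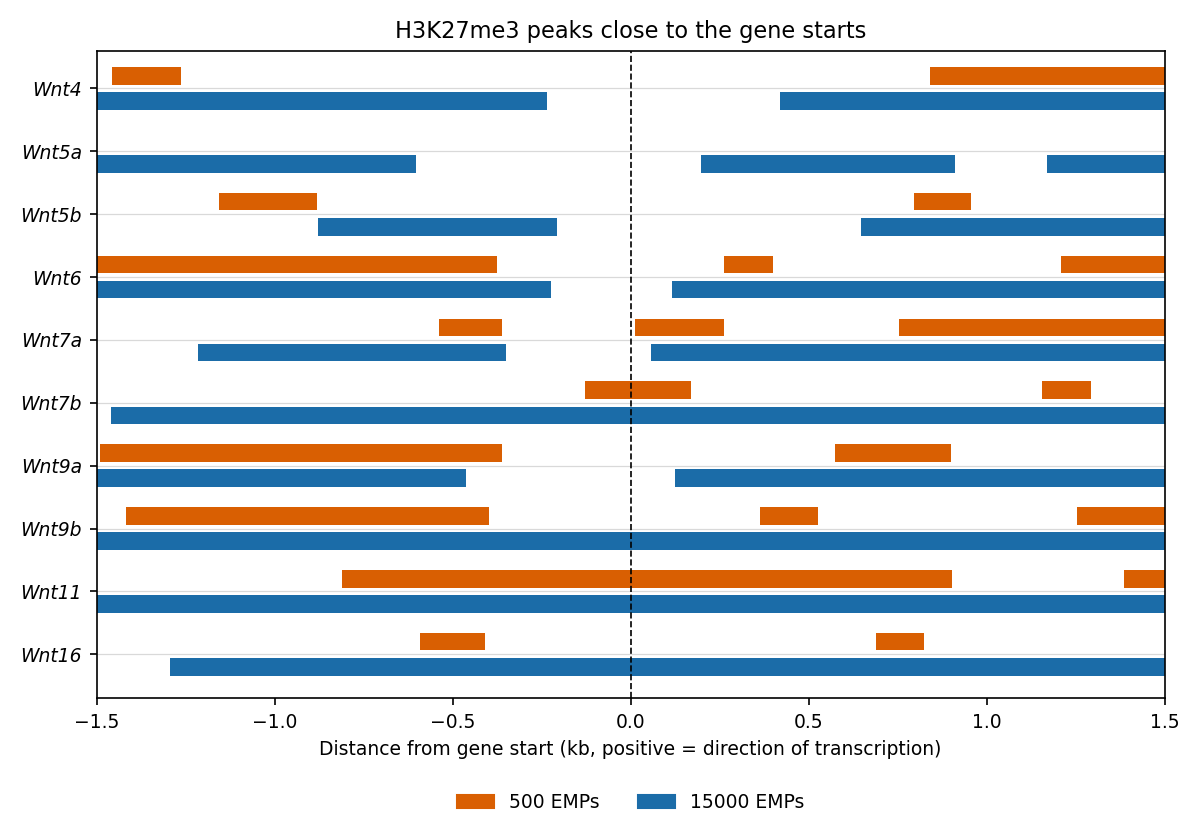
The same peaks within 1.5 kb of the gene start (kb, direction of transcription to the right), 500 EMPs in orange and 15000 EMPs in blue. At Wnt4, Wnt5a, Wnt5b, Wnt6, Wnt7a and Wnt9a the blue peaks leave between 340 and 853 bp free around the dashed start line, whereas at Wnt7b, Wnt9b, Wnt11 and Wnt16 they run across it.

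Most of the members' starts were rich in GC and in CG. From 250 bases before to 50 after the start, the median GC content was 74% over the members (55.3% at Wnt7b to 83% at Wnt9a), 64% over the other Wnt ligand genes, 61% over the 3728 genes that had a 15000-EMP peak within 3 kb and 55% over 21938 protein-coding genes. The observed over expected number of CG, which compares the CG dinucleotides with those that the C and G content would give by chance, had a median of 0.795 over the members, 0.566 over the other Wnt ligand genes, 0.624 over those 3728 genes and 0.524 over all genes. Wnt7b (0.268), Wnt16 (0.402) and Wnt5a (0.508) lay below the median of all genes. The starts of Wnt7b and Wnt16 lay inside a 15000-EMP peak, and that of Wnt5a was bare. The ratio was highest at Wnt11 (1.18), whose start was covered in both libraries, followed by Wnt9a (1.13) and Wnt5b (1.06), whose starts were bare. Over the 6 bare starts the median CG ratio was 0.888 and the median GC content 77.3%, against 0.577 and 64.7% over the 4 covered ones, and the ranges overlapped. The same medians were 0.776 and 68% over the 593 protein-coding genes with a start in such a gap, and 0.571 and 59% over the 1893 with a covered start.

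Within a gene, the bare stretch at the start differed in composition from the peaks beside it. In 6 of 6 gaps both GC content and CG observed over expected were higher than in the 500 bp of peak on each side. The median GC content was 76.8% in the gaps and 61.1% beside them, and the median CG ratio 0.879 and 0.664. The difference was widest at Wnt5b, with 79.1% GC in the gap and 53% beside it. The same held for GC in 91.2% and for the CG ratio in 85.8% of the 593 protein-coding genes with such a gap. Each gap holds the gene start, so this also compares start sequence with sequence away from it. In a fixed window of 300 bp on each side of the start, set against the next 500 bp on each side, GC was higher at the start in 91.7% and the CG ratio in 84.1% of those 593 genes. The same was so for GC in 76.8% and for the CG ratio in 67.4% of the 1893 genes with a covered start. Among the members with a covered start it was so for GC in 3 of 4 and for the CG ratio in 2 of 4. Over all genes, GC and the CG ratio were thus higher at the start in most genes with a covered start too, though less often than in those with a gap. The part of base composition in the gaps was not tested. On the larger scale of 10 kb on each side the order was the other way: with 15000 EMPs the CG ratio was higher in covered than in uncovered bases in 9 of 10 members, Wnt4 being the exception, and in 82.4% of genes with a peak within 3 kb. With 500 EMPs this was so in 8 of 10 members and in 55.2% of such genes. These comparisons of composition were also added after the peaks had been seen.

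**Figure D5:**
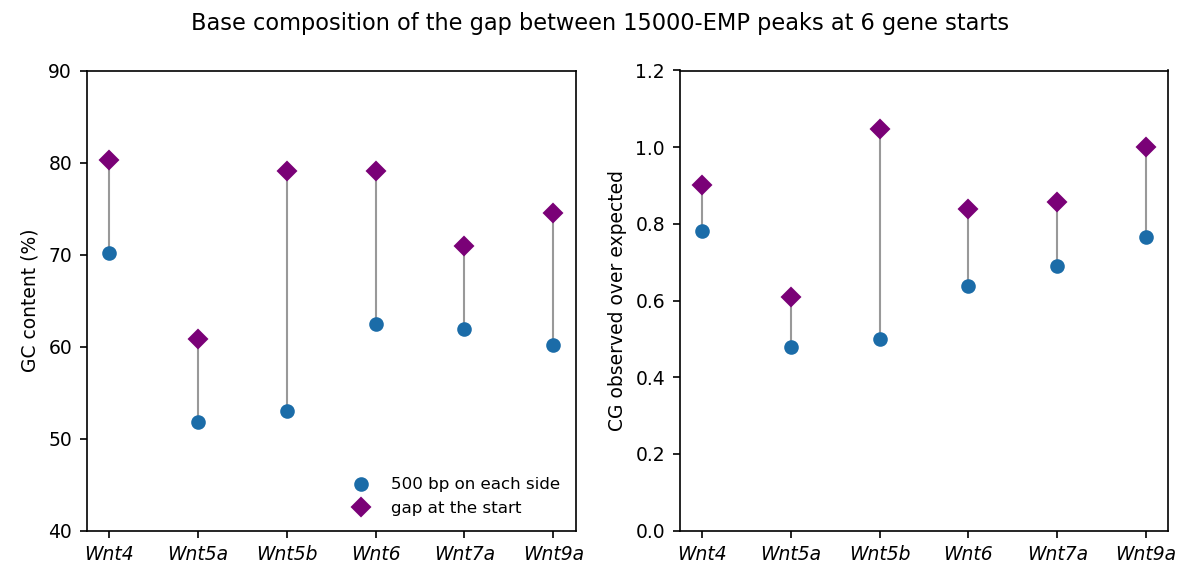
GC content (%, axis from 40) on the left and CG observed over expected on the right for the 6 genes whose start lay in a gap between 15000-EMP peaks. Diamonds are the gap and circles the 500 bp of peak on each side of it; the diamond is above the circle at all 6 genes in both panels.

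Most of the member peaks' length lay inside the genes. Introns held 58.5% of it with 500 EMPs and 50.3% with 15000 EMPs, sequence upstream of the gene 21.1% and 26.4%, and sequence downstream 13.0% and 14.5%. All of the downstream length with 500 EMPs, and most of it with 15000 EMPs, lay beyond Wnt6 towards Wnt10a, which is not a member. Coding sequence held 1.10% and 2.64%, and untranslated exon sequence 5.11% and 5.27%. Of 24 distinct coding transcript starts in the 10 genes, 4 lay inside a 500-EMP peak and 14 inside a 15000-EMP peak. Neither these counts nor the length shares were computed over all genes, so they have no background here. For gene starts alone the shares of all genes were 1.40% and 8.62%.

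The layout of peaks around the start was compared between genes as the shared part of the covered positions within 10 kb, in the 15000-EMP list. Over the 45 pairs of members it ran from 19.8% to 84.0% with a median of 46.5%. The most alike were Wnt5a and Wnt7b (84.0%), Wnt9b and Wnt11 (76.2%), and Wnt9a and Wnt9b (64.3%). With other Wnt ligand genes, the closest were Wnt16 and Wnt2b (75.6%), Wnt7b and Wnt1 (67.6%), and Wnt5a and Wnt1 (65.3%). Over all 90 such pairs, which include those with Wnt8a and Wnt8b, the shared part ran from 0% to 75.6% with a median of 38.7%. These values describe 1 library and depend on how much of each gene was covered.

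Some of the genes that help send and receive these signals carried the mark as well. Of 10 Frizzled receptor genes, 4 had a peak within 3 kb of the start with 500 EMPs (Fzd1, Fzd2, Fzd3 and Fzd10) and 6 with 15000 EMPs, which added Fzd6 and Fzd9. Of the non-Frizzled receptor genes Ror1, Ror2, Ryk and Ptk7, 1 of 4 had one with 500 EMPs (Ryk, 274 bp covered) and 3 of 4 with 15000 EMPs (Ror1 2487 bp, Ror2 4143 bp and Ryk 1504 bp). Of 8 core planar cell polarity genes, Celsr3 had one with 500 EMPs, and Celsr1, Celsr2, Celsr3 and Prickle2 did with 15000 EMPs, with 4284 bp at Celsr3 and 358 bp at Celsr2. Daam2 was the only one of 5 Dishevelled and Daam effector genes with a peak, and it had one in each library. Of the secretion genes Porcn and Wls, only Porcn had a peak, of the 15000-EMP list alone. These counts stand against the same 9.92% and 17.0% of all genes, and no test of a difference from the ligands was made.

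Genes that mark the cell type and its neighbours were counted as well. None of the 4 genes for the sorted surface proteins (Kit, Itga2b, Fcgr3 and Fcgr2b) and none of 6 blood transcription factor genes had a peak within 3 kb of the start in either library. With 9.92% and 17.0% of all genes having one, lists this short and 0 or 1 of 4 endothelial genes do not tell cell types apart. Over the gene and 10 kb on each side, Fcgr3 did have peaks, 3 with 500 EMPs (1060 bp) and 2 with 15000 EMPs (2869 bp), the nearest 4121 bp and 4057 bp upstream of its start, and none of the blood factor genes did. Of 4 endothelial genes, Kdr had 274 bp covered near its start with 15000 EMPs, and Pecam1 had 1 peak of 137 bp in the wider window with 500 EMPs. Pax3 and Sox1, genes of muscle and neural lineages, had peaks in both. The peaks give the mark and not RNA, and expression of the 10 ligands was not analysed here.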

How the data were processed

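CUT&RUN for H3K27me3 and IgG was done on E10.5 yolk sac EMPs, with 1 library per antibody and cell number, grouped by the sample labels. Per the study's methods and the submitters' processing notes, the authors aligned reads to mm10 with Bowtie2 2.2.1, called broad peaks with MACS2 2.1.2 and annotated them with ChIPpeakAnno 3.20.1. The study's listing of commands names the other cell number's library beside each threshold, and the lists were taken as labelled. The deposited peak lists and annotated tables hold positions, gene symbols, categories and distances, with no score or count. The study's reporting summary gives the 500-EMP library the lower depth and alignment rate, and this was not corrected for. IgG peaks were not used here.

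Peaks were set against gene starts (the 5′ end of each GENCODE vM21 gene) with Python 3.11.15, numpy 2.4.6 and pysam 0.24.0, and figures were drawn with matplotlib 3.10.9. An overlap was at least 1 bp. The interval code was tested on simulated peaks. Named were all 10 genes, pathway genes with a peak within 3 kb, and the 3 most alike pairs of each kind. The members and lists were chosen with earlier results of these data known. Alternatives changed the distance limit, the window, the start used, the joining of peaks, the overlap required and the treatment of the shortest peaks.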

Additional observations from a re-analysis of the deposited data

How the results depend on the processing

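No paired analysis was possible because each cell number had 1 library, and no library could be left out. Of 150 alternative values for 34 results, 89 stayed within 1.5 times the value reported or, for shares, within its 95% interval. In what follows the 500-EMP value precedes the 15000-EMP value where both are given. The count of members with a peak within 3 kb moved in no alternative (9 at a limit of 1 kb with 500 EMPs). A limit of 10 kb and the use of any transcript start could not lower this count. Joining peaks within 3 kb put 9 and 10 starts inside a peak, left 12 and 16 peaks, covered 62378 bp with 500 EMPs and gave overlap shares of 100% and 62.5%. Joining within 1 kb left 22 and 23 peaks, covered 47500 bp with 500 EMPs, raised the share to 56.5% with 15000 EMPs and the 500-EMP median near the start to 3281 bp, and left 2 and 0 starts in gaps. This follows from the joining distance: the gaps of Wnt5b (1676 bp) and Wnt16 (1096 bp) with 500 EMPs are longer than 1 kb, and the other gaps counted are shorter. A window of 50 kb gave 73 and 83 peaks over 52276 bp and 159541 bp. Asking for overlap over 50% of a peak lowered the 15000-EMP share to 10.9%, and allowing 1 kb raised the 500-EMP share to 100%. The median covered length was 496 bp and 1626.5 bp within 1 kb of the start and 2586.5 bp and 9346.5 bp within 10 kb. With peaks within 0.5 kb on both sides, 3 starts lay in gaps with 500 EMPs. The alternatives for the gaps were chosen after seeing the data. Of the single genes' covered lengths, 36 of 80 values moved. The 500-EMP library had the lower depth and alignment rate and this was not corrected for, so a peak missing from its list does not show that the mark was absent.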
